A study of Mus musculus with 2 samples.

Results

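The 30 genes described here encode enzymes that build cholesterol and long-chain fatty acids, together with the proteins that switch these enzymes on and off. They were taken by name, and their rows were found in both gene tables through the GENCODE M21 names of the gene identifiers. They are 30 of 43346 rows named as genes, of which 21474 are annotated as protein-coding. The genes divide into 2 that start the sterol route from acetyl-CoA, 5 from mevalonate to farnesyl diphosphate, 3 from there to lanosterol, 8 from lanosterol to cholesterol, 5 regulators and 7 of fatty acid synthesis. The list does not hold every enzyme of either route.

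The RNA came from G1E, an immortalized mouse cell line that the labels describe as an erythroid progenitor lacking Gata1, male, of postnatal stage and an age of 0 days. Gata1 encodes the transcription factor that red cell precursors need to mature, and the line is known to have been made from embryonic stem cells that carried a disrupted Gata1 gene. The labels give no treatment and no second group. Poly(A)-selected RNA was sequenced as single-end reads in 2 libraries, labelled biological replicates 1 and 2, that cite the same biosample. All levels below are therefore those of 1 line that lacks Gata1, with no Gata1-expressing cells to set beside it. The spread between the libraries may be technical, and no difference between them has a replicate check. With 2 libraries the smallest two-sided p of an exact sign-flip test is 0.5, and no p-value is given.

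Replicate 1 held 31645051 and replicate 2 held 56983558 expected counts, the estimated numbers of reads per gene, and the length correction in the tables implies reads of 36 and 55 nt. Protein-coding genes took 84.4% of the TPM of replicate 1 and 75.1% of that of replicate 2, where TPM (transcripts scaled to a fixed total per library) is a level per transcript length. Of the erythroid progenitor markers 11 of 11 reached 1 TPM in both libraries, and their summed level was 3347 TPM in replicate 1 and 2006 in replicate 2. Markers of fat cells and liver cells, the tissues in which these pathways are best known, reached 1 TPM for 0 of 4 and 0 of 4 genes. Their summed levels were 0.20 and 0.010 TPM for fat cells and 0.24 and 0.050 TPM for liver cells in replicates 1 and 2. Of the other blood lineages, 2 of 5 myeloid, 1 of 3 mast cell and 0 of 3 lymphoid markers reached 1 TPM in both libraries. The myeloid markers summed to 15.4 and 21.7 TPM, the mast cell markers to 4.71 and 15.3 TPM and the lymphoid markers to 0.90 and 0.16 TPM in replicates 1 and 2, while Elane and Mcpt8 had 0 counts in both. In bulk RNA such as this, fewer cells of a type and less RNA per cell cannot be told apart.

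As background, cells make cholesterol by joining acetyl-CoA units into mevalonate, turning mevalonate into isoprenoid diphosphates, and folding squalene into the ring of lanosterol, which a series of reductases, demethylating enzymes and isomerases then trims. Fatty acids are built from the same acetyl-CoA by a carboxylase and a synthase, and are then lengthened and desaturated. Both routes are driven by SREBP transcription factors, which wait in the membrane of the endoplasmic reticulum bound to the escort protein SCAP. INSIG proteins hold that complex back when sterols are plentiful, and the freed factors bind sterol regulatory elements (SREs) near gene starts, usually beside binding sites for NF-Y or SP1. In red cell precursors the routes supply the membrane of dividing cells, and isoprenoids feed heme A, ubiquinone and protein prenylation.

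The promoters of 5 members are shown, chosen for the features named next, and no level or ratio here was derived from promoter sequence. Hmgcs1 held the only SRE match found, Idi1 and Msmo1 differed most between the libraries, Insig1 had the lowest level and Fasn took the second highest number of counts. Each is 250 bases immediately before a RefSeq start on GRCm38.p6, printed 5′ to 3′ on the strand of the gene. Capitals mark the SRE TCACNCCAC, the NF-Y box CCAAT and the E-box CACGTG, on whichever strand they were found. The regions are chr13:119690101-119690350, chr13:8885356-8885605 and chr5:28071162-28071411 on the forward strand and chr8:64733579-64733828 and chr11:120824548-120824797 on the reverse strand.
Hmgcs1: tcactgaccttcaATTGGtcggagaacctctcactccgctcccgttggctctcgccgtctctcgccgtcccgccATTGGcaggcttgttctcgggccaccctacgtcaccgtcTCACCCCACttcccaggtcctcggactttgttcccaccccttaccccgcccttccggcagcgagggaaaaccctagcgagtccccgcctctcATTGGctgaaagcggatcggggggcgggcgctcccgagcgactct
Idi1: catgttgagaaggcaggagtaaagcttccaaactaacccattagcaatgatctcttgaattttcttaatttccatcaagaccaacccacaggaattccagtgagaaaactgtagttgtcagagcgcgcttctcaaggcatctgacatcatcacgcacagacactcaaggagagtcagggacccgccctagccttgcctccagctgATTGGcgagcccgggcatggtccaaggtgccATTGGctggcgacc
Msmo1: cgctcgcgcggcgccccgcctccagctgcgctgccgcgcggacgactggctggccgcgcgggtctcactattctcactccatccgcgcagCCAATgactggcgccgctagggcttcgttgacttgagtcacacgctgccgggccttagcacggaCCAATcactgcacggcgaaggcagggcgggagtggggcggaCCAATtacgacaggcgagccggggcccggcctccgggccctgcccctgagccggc
Insig1: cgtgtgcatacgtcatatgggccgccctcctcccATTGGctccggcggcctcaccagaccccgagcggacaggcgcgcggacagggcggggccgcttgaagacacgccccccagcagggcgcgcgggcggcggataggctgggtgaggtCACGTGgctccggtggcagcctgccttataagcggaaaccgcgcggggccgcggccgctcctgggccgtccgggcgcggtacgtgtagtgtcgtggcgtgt
Fasn: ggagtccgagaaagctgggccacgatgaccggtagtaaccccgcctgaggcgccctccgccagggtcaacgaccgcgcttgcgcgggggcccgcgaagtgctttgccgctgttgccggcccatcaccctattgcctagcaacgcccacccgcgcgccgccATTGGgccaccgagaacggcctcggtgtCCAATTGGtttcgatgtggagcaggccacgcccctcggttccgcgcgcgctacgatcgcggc
In Hmgcs1 the SRE lies 137 to 129 bases before the start, with 2 NF-Y boxes upstream of it and 1 between it and the start. Msmo1 carries 3 NF-Y boxes, Idi1 2, and Insig1 1 beside an E-box. These places refer to the RefSeq starts. Idi1-201, the leading annotated transcript of Idi1 in both libraries, starts at base 8885501, so the 2 boxes of Idi1 lie downstream of that start. The 3 boxes of Msmo1 lie downstream of base 64733792, where Msmo1-201 starts, but upstream of base 64733581, where Msmo1-206 starts. In Fasn 2 of the 3 NF-Y boxes overlap, since CCAATTGG reads as the box on both strands.

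Almost the whole set was expressed. Both libraries had 29 of 30 members at 1 TPM or more, beside 42.5% of protein-coding genes, and the exception was Insig1. The median over members of the mean level was 34.3 TPM, against 0.365 TPM over all protein-coding genes and 23.5 TPM over those that reached 1 TPM in both libraries. Together the 30 genes held 2804 TPM in replicate 1 and 2545 in replicate 2, or 2675 ± 183 TPM (SD, n = 2). Fatty acid synthesis genes held 1516 and 1110 TPM of this in replicates 1 and 2, the 18 cholesterol route enzymes 757 and 1129 TPM, and the regulators 531 and 306 TPM. The order of the members was similar in the libraries: across the 30 genes, which are not independent replicates, log2(TPM + 1) in replicate 1 and replicate 2 had a Pearson r of 0.932 and a Spearman rho of 0.889.

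**Figure D1:**
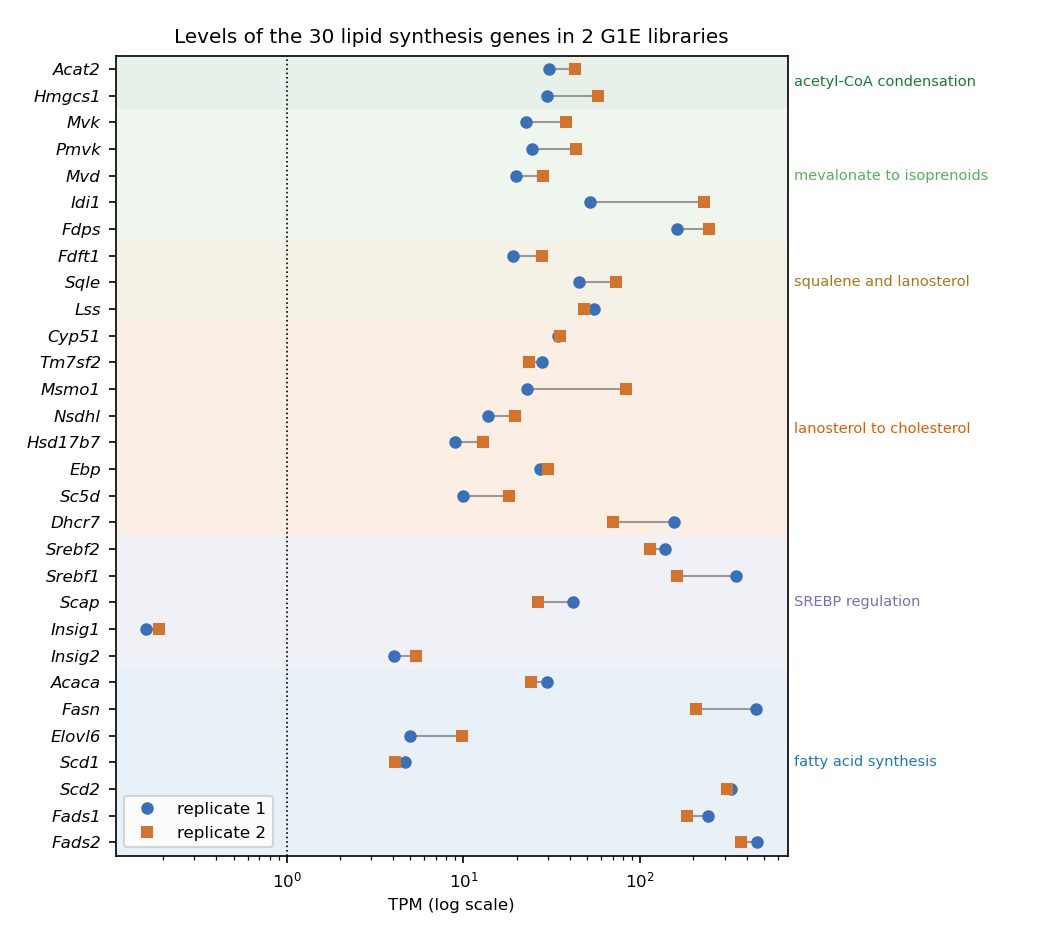
TPM of the 30 members in G1E replicate 1 (blue circles) and replicate 2 (orange squares), on a log axis, ordered by pathway step; the dotted line marks 1 TPM. Insig1 alone lies left of the line, and Fads2, Scd2, Fasn, Srebf1, Fads1 and Fdps lie furthest right.

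Every listed enzyme of the route to farnesyl diphosphate was expressed in both libraries, though the list does not hold every step. Acat2, the thiolase that joins acetyl-CoA units, had 30.4 TPM in replicate 1 and 42.8 in replicate 2. Hmgcs1 (ENSMUSG00000093930.1, chr13:119690379-119708260 on GRCm38), the cytosolic HMG-CoA synthase, had 29.7 and 57.5 TPM in replicates 1 and 2. The mevalonate kinase Mvk had 22.6 and 37.9 TPM in replicates 1 and 2. Its neighbours in the route, the kinase Pmvk and the decarboxylase Mvd, lay in the same range, between 19.8 and 43.1 TPM over both libraries. Idi1 (ENSMUSG00000058258.10, chr13:8885501-8892451), the isomerase that converts isopentenyl to dimethylallyl diphosphate, had 51.8 TPM in replicate 1 and 231 in replicate 2. Its TPM was 4.46-fold higher in replicate 2, a wider ratio than any other member showed. Fdps, which makes farnesyl diphosphate, had 161 and 246 TPM in replicates 1 and 2, the highest mean of the 18 cholesterol route enzymes at 204 ± 60.6 TPM (SD, n = 2).

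Beyond farnesyl diphosphate no enzyme reached the level of Fdps in either library. Squalene synthase, Fdft1, had 18.9 and 27.7 TPM in replicates 1 and 2, and squalene epoxidase, Sqle, 45.0 and 73.2 TPM. Lanosterol synthase, Lss, had 54.5 and 47.8 TPM in replicates 1 and 2. Among the 8 enzymes that turn lanosterol into cholesterol the median level was 27.2 TPM, with means from 10.99 TPM for the ketosteroid reductase Hsd17b7 to 113 TPM for Dhcr7. Dhcr7, the reductase of the last step in one branch of the route, had 155 TPM in replicate 1 and 70.4 in replicate 2, so the lower of its values was above either value of 6 of the other 7 enzymes. The exception was Msmo1, the methylsterol monooxygenase, which had 22.8 TPM in replicate 1 and 83.1 in replicate 2. The lanosterol demethylase Cyp51 had 34.2 and 35.3 TPM, the sterol isomerase Ebp 27.01 and 30.3 TPM and the sterol reductase Tm7sf2 27.8 and 23.6 TPM in replicates 1 and 2. Nsdhl, a sterol dehydrogenase, had 13.9 and 19.6 TPM in replicates 1 and 2. The sterol desaturase Sc5d had 9.95 and 18.1 TPM, and Hsd17b7 9.00 and 13.0 TPM, in replicates 1 and 2, so by gene TPM these 3 genes formed the low end of the route. Over transcripts annotated as coding, Ebp had 7.45 and 12.6 TPM in replicates 1 and 2 and lay below Nsdhl in both.

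The regulators were uneven. Srebf2, which encodes the SREBP that acts mainly on cholesterol genes, had 138 and 113 TPM in replicates 1 and 2, and Srebf1, whose products act mainly on fatty acid genes, had 348 and 161 TPM. The escort Scap had 41.4 and 26.5 TPM in replicates 1 and 2. Of the retention proteins, Insig2 had 4.04 and 5.39 TPM, and Insig1 (ENSMUSG00000045294.10, chr5:28071363-28078662) had 0.16 and 0.19 TPM, from 10 and 23 counts, in replicates 1 and 2. Among protein-coding genes the mean level of Insig1 stood at the 43.1 percentile, whereas the member next above it, Scd1, stood at the 62.2 percentile. Insig1 is itself a textbook SREBP target, and its credibility intervals, the authors' estimate of counting and assignment error, ran from 0.0764 to 0.271 TPM in replicate 1 and from 0.118 to 0.269 TPM in replicate 2. For Insig2 the deposited TPM of 4.04 in replicate 1 lay outside its own interval, 4.60 to 7.004 TPM, and TPM lay outside the interval for 10 members in replicate 1 and 15 in replicate 2. The share of all genes with TPM outside the interval was not computed. In log2(TPM + 1), Insig1 minus Insig2 was -2.27 ± 0.22 (SD, n = 2). As Insig1 lies below the added 1 TPM, this understates the gap: with 0.1 added the difference was -4.12, and Insig1 had 0.0396 and 0.0353 times the TPM of Insig2 in replicates 1 and 2.

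The 3 members of highest mean TPM, Fads2, Fasn and Scd2, belonged to fatty acid synthesis, which also held Elovl6 and Scd1, both under 10 TPM. Fads2, the first desaturase of polyunsaturated fatty acid synthesis, had 457 and 372 TPM in replicates 1 and 2. Fads1, which acts after it, had 241 and 185 TPM in replicates 1 and 2, and Fads2 was 1.90-fold and 2.01-fold above it. Fasn (ENSMUSG00000025153.8, chr11:120805846-120824547), the fatty acid synthase, had 450 TPM in replicate 1 and 207 in replicate 2. Acaca, the carboxylase that supplies malonyl-CoA, had 29.8 and 24.1 TPM in replicates 1 and 2, and its mitochondria-associated paralog Acacb 0.28 and 0.33 TPM. Elovl6, which lengthens the products of Fasn, had 4.96 and 9.76 TPM in replicates 1 and 2. The stearoyl-CoA desaturase of higher level was Scd2 (ENSMUSG00000025203.5, chr19:44293674-44306864), with 328 and 309 TPM in replicates 1 and 2, whereas Scd1, the main form in liver and fat, had 4.68 and 4.10 TPM. Scd2 was 70.1-fold above Scd1 in replicate 1 and 75.3-fold in replicate 2, and each gene had 1 annotated transcript.

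Of 8 gene pairs compared in log2(TPM + 1), 5 were at least 2-fold apart the same way in both libraries. These were Scd2 over Scd1 at 5.89 ± 0.05, Idi1 over its paralog Idi2 at 6.32 ± 1.58, Acaca over Acacb at 4.41 ± 0.25, Acaca over Fasn at -3.46 ± 0.58 and Insig1 over Insig2 (SD, n = 2 each). All 5 exceeded 1.23, the bound set by the standard deviation between the libraries pooled over 10469 expressed genes, 0.628 on this scale. Insig1, Acacb and Idi2 are below 1 TPM and so are not among those genes. The bound holds the spread between the libraries only, not error in setting different genes side by side. Fads2 over Fads1, at 0.96 ± 0.06, and Srebf2 over Srebf1, at -0.92 ± 0.58, lay within the bound. Acaca over Acacb also depends on the added value, since Acacb is below 1 TPM, and was 6.06 with 0.1 added, and likewise Idi1 over Idi2 was 7.82. For Acat2 over the mitochondrial thiolase Acat1 the libraries disagreed in sign, with -1.57 in replicate 1 and 0.19 in replicate 2. Acat1 itself had 92.3 TPM in replicate 1 and 37.4 in replicate 2.

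Several of these levels depended on which transcript the reads were assigned to. Fasn had 39387 and 59736 expected counts in replicates 1 and 2, which scaled by library size with TMM (trimmed mean of M-values) come to 1163 and 1123 CPM (counts scaled to a common library total). The scaled counts were thus nearly equal, while the deposited gene TPM was over 2-fold apart. The full coding transcript, Fasn-201 of 9587 nt, held 86.8% of the gene's counts in replicate 1 and 95.8% in replicate 2. Its share of the gene's TPM was 34.1% in replicate 1 and 64.0% in replicate 2. Most of the difference lay in Fasn-202, a retained-intron transcript of 762 nt, whose 4438 and 1931 counts in replicates 1 and 2 gave 261 and 60.2 TPM. The coding transcript alone stood at 153 TPM in replicate 1 and 132 in replicate 2, so its own level differed far less than that of the gene.

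Srebf1 (ENSMUSG00000020538.11, chr11:60199089-60222581) showed a similar split. A processed transcript of 686 nt, Srebf1-208, was assigned 2093 counts and 138 TPM in replicate 1 and is listed at 0 in replicate 2. Coding transcripts summed to 61.2 TPM in replicate 1 and 81.7 in replicate 2, so over coding transcripts replicate 2 was higher, whereas the gene TPM of 348 and 161 had replicate 1 higher. Scaled counts of the gene were 285 CPM in replicate 1 and 313 in replicate 2. As background, Srebf1 is transcribed from separate starts that give the forms SREBP-1a and SREBP-1c. Transcripts were annotated at 12 starts, and they are not assigned to these forms here. Of the 3 that begin nearest to RefSeq starts, Srebf1-204 at base 60222581 of chromosome 11 was assigned 470 and 223 counts in replicates 1 and 2. Srebf1-201 at base 60220604 was assigned 2361 and 7475 counts, and Srebf1-207 at base 60210465 was assigned 147 and 2182 counts, in replicates 1 and 2. Srebf1-204 is a fragment of 367 nt, whereas the coding transcripts Srebf1-201 and Srebf1-207 are 4299 and 3177 nt long, so these counts do not measure the use of the starts. The pair of SREBP genes depended on this as well. By all reads of a gene per kilobase of its longest coding transcript, Srebf2 over Srebf1 was 0.44 ± 0.08 in log2 (SD, n = 2). That value has the opposite sign to the TPM value and is also below 1. For Acaca over Fasn the same measure gave -2.75, still at least 2-fold and the same way.

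Of the 30 members 12 had 1 annotated transcript, and of the 18 with more the transcript of highest TPM was the same in both libraries for 10. It differed for Lss, Cyp51, Tm7sf2, Msmo1, Hsd17b7, Ebp, Srebf1 and Fasn. In 5 of these, Lss, Cyp51, Hsd17b7, Srebf1 and Fasn, the leader was a short transcript without annotated coding sequence in replicate 1 and the longest coding one in replicate 2. For Cyp51 the coding transcripts stood at 15.0 TPM in replicate 1 and 32.6 in replicate 2, although the gene TPM of 34.2 and 35.3 hardly differed. For Lss the retained-intron transcript Lss-205, 425 nt long, led in replicate 1 with 31.4 TPM and had 16.4 TPM in replicate 2, and the coding transcripts had 16.7 and 25.6 TPM. In Hsd17b7 the coding transcripts took 52.7% of TPM in replicate 1 and 69.2% in replicate 2. Ebp was mostly assigned to retained-intron forms: coding transcripts took 27.6% and 41.6% of its TPM in replicates 1 and 2. Msmo1 and Tm7sf2 went the other way in TPM, with coding shares of 63.0% and 33.2% for Msmo1 and 93.8% and 82.3% for Tm7sf2 in replicates 1 and 2. Over coding transcripts Msmo1 had 14.4 and 27.6 TPM in replicates 1 and 2, a narrower gap than the gene TPM of 22.8 and 83.1. Scd1, Scd2, Srebf2 and Insig1 had 1 transcript each. Acaca was led by Acaca-201 in both libraries, with 85.9% and 84.2% of its TPM in replicates 1 and 2, and Insig2 by Insig2-201, with 96.5% and 82.1%. The libraries also differed in implied read length, 36 against 55 nt, and the part of read length in these differences was not tested.

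The order of the members therefore shifted with the measure. A second measure divided all scaled reads of a gene by the length of its longest coding transcript, whichever transcripts held the reads. By mean scaled reads per kilobase of the longest coding transcript, in which each gene keeps 1 length in both libraries, the order from the top was Fads2 at 307 ± 1.82, Scd2 at 243 ± 25.1, Fads1 at 160 ± 6.62, Fdps at 154 ± 65.9, Fasn at 119 ± 2.94 and Idi1 at 112 ± 111 (SD, n = 2 each). Scd2 and Fads2 lay apart from each other and from the next by more than these SDs, while neighbours from Fads1 down to Idi1 did not. Of the 30 members 5 moved by more than 3 places between this order and that by TPM. Srebf1 was at place 4 by TPM and 9 by this measure, Ebp at 19 and 25, and Lss at 12 and 16. For Ebp the length used was the 1743 nt of Ebp-201, which held 3.64% and 12.1% of its counts in replicates 1 and 2. The mean transcript length of Ebp was 769 and 779 nt in replicates 1 and 2. Mvd, at 22 and 18, and Fdft1, at 23 and 19, moved up. Mean transcript length, which sets TPM for a given count, differed at least 1.5-fold between the libraries for 3 members. It was 3784 and 6426 nt for Fasn, 1224 and 2327 nt for Srebf1 and 2019 and 3674 nt for Cyp51 in replicates 1 and 2. Insig1 was last by either measure.

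**Figure D2:**
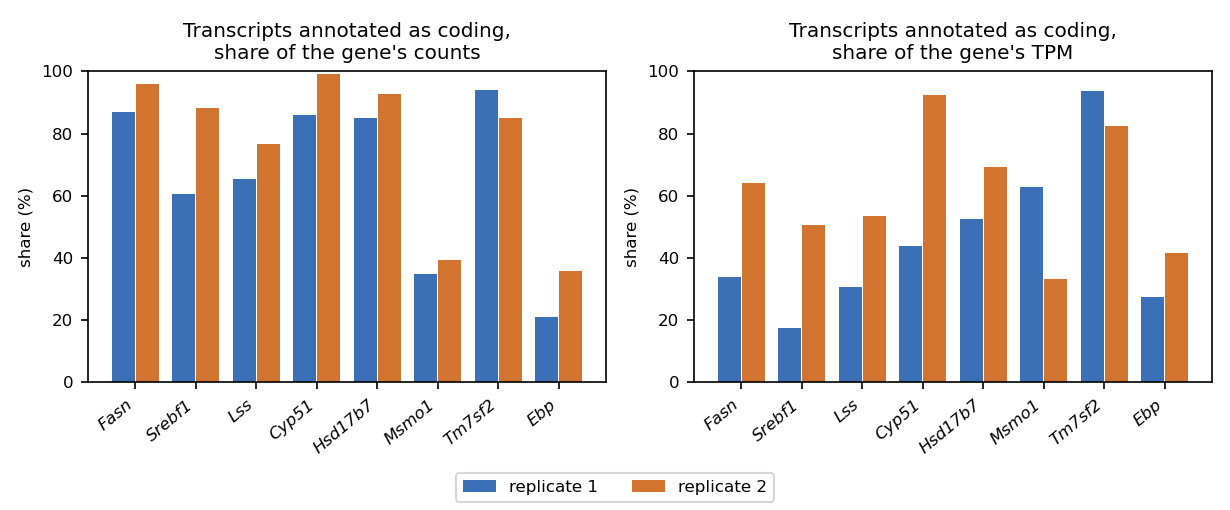
Share of each gene's expected counts (left) and of its TPM (right) on transcripts annotated as coding, in percent, for the 8 members whose leading transcript differed, in replicate 1 (blue) and replicate 2 (orange). Fasn reaches 86.8% and 95.8% of counts but 34.1% and 64.0% of TPM, and Msmo1 and Tm7sf2 are the genes whose coding share of TPM is lower in replicate 2.

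In scaled counts, most cholesterol route enzymes had higher ratios between the libraries than most fatty acid genes. At least 2-fold higher in replicate 2 were 8 of the 29 members with 50 counts or more, or 27.6%, beside 22.3% of all 12414 genes tested, and at least 2-fold higher in replicate 1 were 0 members, beside 10.2%. A nearer background is the 9110 protein-coding genes with 50 counts or more that reached 1 TPM in both libraries. Of these, 1783 were at least 2-fold higher in replicate 2 and 278 in replicate 1, or 22.6% in either direction. The share over the whole set was thus near the background. Over all genes the median log2 ratio of replicate 2 to replicate 1 was 0.28, with the interquartile range from -0.29 to 0.90. Over the 18 cholesterol route enzymes the median was 0.87, and 16 of them lay above the median of all genes. Over the fatty acid genes it was -0.01 and over the 4 regulators tested 0.07. The 8 members were Hmgcs1, Pmvk, Idi1, Cyp51, Msmo1, Hsd17b7 and Sc5d of the cholesterol route and Elovl6 of fatty acid synthesis. As 1 library stands against 1, these ratios describe the libraries and carry no test. The expressed markers of other blood lineages differed between the libraries in both directions. The macrophage lysozyme Lyz2 had 3.20 and 15.7 TPM and the mast cell protease Cpa3 4.66 and 15.3 TPM in replicates 1 and 2, whereas the myeloid marker Cd68 had 11.8 and 5.76 TPM, and the part of such cells in the ratios was not tested.

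The ratios of single enzymes ran from 2.49 in log2 for both Idi1 and Msmo1 down to -0.86 for Dhcr7. Idi1 had 103 CPM of scaled counts in replicate 1 and 577 in replicate 2. For Msmo1 the scaled counts were 16.1 CPM in replicate 1 and 90.5 in replicate 2. Both were thus several times higher in replicate 2. Dhcr7 had 263 CPM in replicate 1 and 145 in replicate 2, and was the only cholesterol route enzyme with a ratio below 0. Hmgcs1 had 65.5 and 156 CPM in replicates 1 and 2, and Cyp51 46.8 and 109 CPM. Elovl6, with 20.2 and 49.0 CPM in replicates 1 and 2, was the only fatty acid gene at least 2-fold apart, at a log2 ratio of 1.28. Fasn, Fads1, Fads2 and Acaca, by contrast, lay between -0.09 and -0.01.

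**Figure D3:**
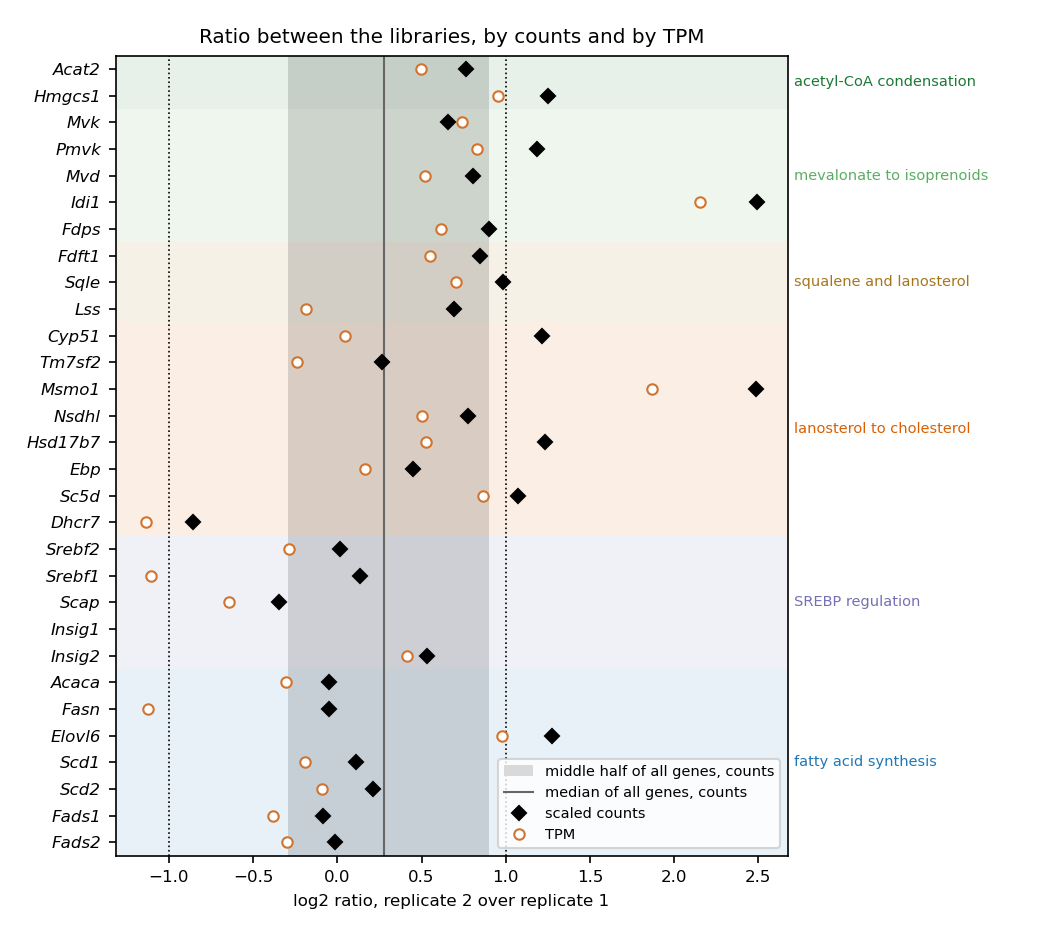
Log2 ratio of replicate 2 over replicate 1 for each member, by TMM-scaled counts (black diamonds) and by TPM (open circles), with the median and the interquartile range of all genes with 50 counts or more in grey and dotted lines at 2-fold; Insig1 had too few counts. The diamonds of 7 cholesterol route enzymes and of Elovl6 lie right of the 2-fold line, and for Fasn and Srebf1 the circles lie far left of the diamonds.

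The deposited TPM ordered the members differently. By the ratio of TPM + 1, 5 members were at least 2-fold apart: Idi1 and Msmo1 were higher in replicate 2, and Dhcr7, Srebf1 and Fasn were lower in replicate 2. The share of all genes apart by this rule was not computed, so the count only describes the members. The credibility intervals did not overlap for 23 of the 30 members, beside 75.9% of the expressed protein-coding genes, a share near the background. The 7 members whose intervals overlapped were Lss, Cyp51, Tm7sf2, Ebp, Insig1, Insig2 and Scd1.

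The ratio between the libraries varied with GC content. Over 12330 genes with a GC value, the percentage of G and C in a gene's transcripts and the log2 ratio had a Pearson r of -0.194 and a Spearman rho of -0.389, and over 29 members of -0.589 and -0.593. All genes share the same pair of libraries, so these are descriptions. The GC content of Idi1 was 41.1% and that of Msmo1 44.1%, among the lowest of the set. After subtraction of a lowess trend on GC over all genes, 6 members were at least 2-fold higher in replicate 2: Pmvk, Idi1 and Msmo1 of the 8 named above, and also Mvd, Fdps and Fdft1. Idi1 then had a log2 ratio of 1.49 and Msmo1 of 1.94, while Hmgcs1, at 0.63, and Elovl6, at 0.99, were no longer 2-fold apart. How many of all genes were 2-fold apart after this subtraction was not computed, so the count of 6 only describes the members. The median of the 18 cholesterol route enzymes was 0.95 after this step and that of the fatty acid genes 0.24, against 0.24 over all genes. Read length differed between the same libraries and its part in the ratios was not tested.

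**Figure D4:**
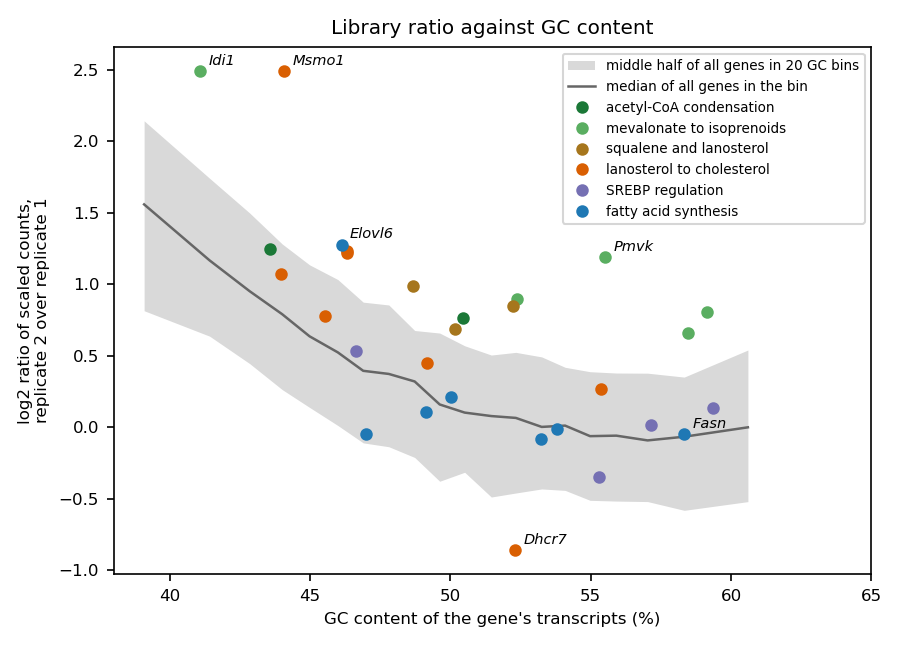
Log2 ratio of scaled counts, replicate 2 over replicate 1, against the GC content of a gene's transcripts in percent; points are members coloured by pathway step, and the line and band are the median and interquartile range of all genes in 20 bins of GC content. Idi1, Msmo1 and Pmvk are among the members above the band and Dhcr7 lies below it, while Fasn lies on the line.

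Some members share sequence with other genes, which limits how their reads could be placed. At the length of the shorter reads, 36 bases, 42.3% of the positions in Acat2 transcripts also occur in other genes, above all its close paralog Acat3, which had 0.75 and 1.10 TPM in replicates 1 and 2. For Acaca the share was 32.5%, for Fdft1 30.3%, for Fdps 27.6% and for Idi1 26.5%. The main partners of Acaca, Fdps and Hmgcs1, namely Gm5182, Gm43738 and Gm48342, have no deposited values, so no reads were assigned to them. The annotated Ctsb gene overlaps Fdft1 on the opposite strand and had 35.9 and 28.9 TPM in replicates 1 and 2. The partner of Idi1, Gm13502, had 18 and 73 counts in replicates 1 and 2, against 3474 and 30681 for Idi1. Hmgcs1, Tm7sf2 and Scap had shares of 12.7%, 12.0% and 10.9%, and Scd1, Scd2 and Elovl6 of 7.06%, 5.90% and 5.66%. No source used here says whether counting used strand, so overlapping genes on opposite strands may share reads.

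Genes that surround the set in the pathway were expressed to different extents. Of 10 genes of the isoprenoid branches, 9 reached 1 TPM in both libraries, beside 42.5% of protein-coding genes. They were led by Coq2 of ubiquinone synthesis with 42.6 and 53.8 TPM and by the farnesyltransferase subunits Fntb with 52.1 and 29.8 TPM and Fnta with 19.0 and 49.3 TPM in replicates 1 and 2. The exception was Idi2, with 0.43 and 0.34 TPM in replicates 1 and 2. Of 14 genes of sterol sensing and transport, 12 reached 1 TPM. Among the highest were the liver X receptor Nr1h2, with 115 and 80.5 TPM, and the lysosomal sterol carrier Npc2, with 55.9 and 52.4 TPM in replicates 1 and 2. The other liver X receptor, Nr1h3, had 0.36 and 0.14 TPM and the sterol exporter Abcg1 0.60 and 0.01 TPM in replicates 1 and 2.

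Of 24 neighbours in fatty acid metabolism 14, or 58.3%, reached 1 TPM in both libraries, beside 42.5% of protein-coding genes. Tecr, which completes each elongation cycle, had 394 and 161 TPM in replicates 1 and 2. The elongase Elovl1 had 222 and 175 TPM, and Slc25a1, the mitochondrial citrate carrier, 161 and 131 TPM in replicates 1 and 2. Elovl2, another elongase, had 0.06 TPM in replicate 1 and 0 counts in replicate 2, where 3 counts would have been 0.0180 TPM. For Elovl3 both libraries had 0 counts, which allows up to 0.0892 TPM in replicate 1 and 0.0462 in replicate 2. In scaled counts, at least 2-fold higher in replicate 2 were 4 of 10 isoprenoid, 3 of 12 sterol transport and 4 of 17 fatty acid neighbours with 50 counts or more, beside 22.3% of all genes tested. At least 2-fold higher in replicate 1 were 0, 0 and 3 of them, beside 10.2%.

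Promoters were compared over the window from 250 bases before to 50 bases after a start. RefSeq entries were found for 24 of the 30 members, with 32 promoters in all, and none were used for Fdps, Fdft1, Sqle, Scd1, Scd2 and Fads1. The SRE TCACNCCAC occurred in 1 of 32, that of Hmgcs1, beside 0.993% of the 9264 promoters of expressed protein-coding genes, those at 1 TPM in both libraries, and 1.24% of all 32851 promoters. Relaxed to TCANNCCAC, which every strict match also fits, it again matched Hmgcs1 alone, beside 3.58% and 4.18%. The NF-Y box CCAAT was present in 20 promoters, or 62.5%, beside 39.0% of promoters of expressed protein-coding genes and 37.4% of all promoters. It fell in 19 members, among them 14 of the 15 cholesterol route enzymes with an entry. These counts take a match in any promoter of a gene, and no share of all genes was computed in that way. The only box of Pmvk lies in the promoter at 89454291-89454540, whereas its quantified transcripts start between bases 89459118 and 89459571. The boxes of Insig2 lie before base 121332589, where the annotated transcript had 0 counts in both libraries. The SP1 box GGGCGG was present in 75%, beside 65.4% of expressed and 35.7% of all promoters. The E-box CACGTG was present in 18.8%, beside 10.7% and 7.15%, namely in Dhcr7, Hsd17b7, Insig1, Sc5d and Scap. The GATA site AGATAA was present in 1 promoter, an upstream one of Insig2, beside 6.21% and 11.2%. Some promoters of the same gene overlap and are not independent, and a match describes letters and not binding.

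**Figure D5:**
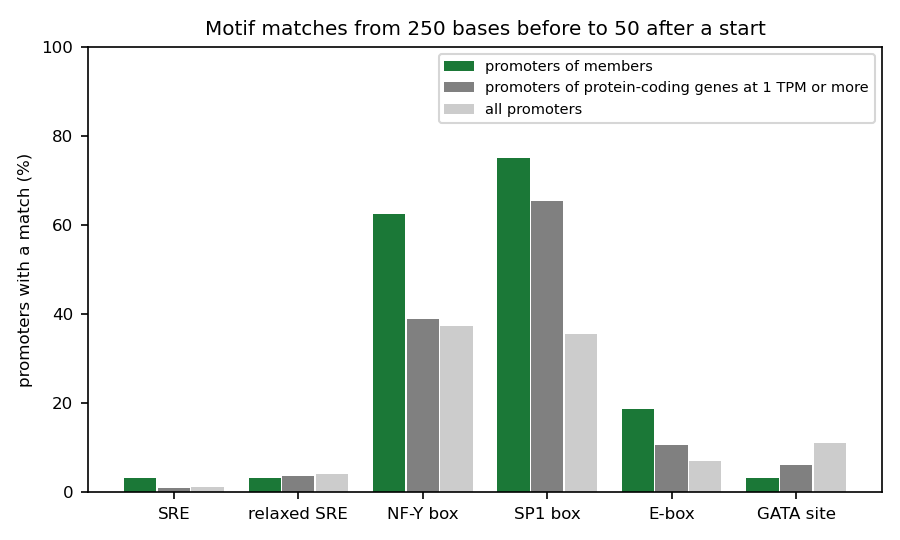
Percentage of promoters with at least 1 match, on either strand, to each of 6 motifs, among the 32 promoters of members (green), the promoters of protein-coding genes at 1 TPM or more (dark grey) and all promoters (light grey). The member bars stand at 62.5% for the NF-Y box and 75% for the SP1 box, and at 1 promoter each for both SRE forms and the GATA site.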

How the data were processed

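The authors deposited, for each library, a gene table and a transcript table of expected counts, which are estimated reads per feature without normalisation and need not be whole. The deposited TPM values divide by effective length, per the file headers. Deposited signal columns hold a posterior mean TPM with a lower and an upper credibility bound, at a level that no source used here states. The deposited percent column is a transcript's share of its gene's TPM. The submitters' notes name assembly mm10 and annotation M4. Which aligner and quantifier the authors used is not given in the sources used here.

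Names, types and positions came from GENCODE M21 (GRCm38), with 42462 of 43346 identifiers matched and 884 unmatched. The 26345 rows that name no gene held 0.0363% and 0.00942% of the counts of replicates 1 and 2 and were left out. Counts were rounded, scaled by TMM (edgeR 4.0.16, factors 1.07 and 0.934) and compared as ratios with 0.5 added, for genes with 50 counts or more in total. Levels were compared as log2(TPM + 1). The calculation of these ratios was checked on simulated gene counts. These held no GC trend, read length difference or transcript assignment, so the check does not cover those. The GC trend was a lowess fit with span 0.3 (statsmodels 0.14.6). Alternatives were DESeq2 1.42.0 size factors, other thresholds and pseudocounts, TPM rescaled over protein-coding genes and coding transcripts alone. Promoter sequences are RefSeq's. Named were all members, up to 3 highest and up to 2 lowly expressed genes of each neighbouring list, all pairs, and transcripts of regulators, desaturases and members whose leading transcript differed. A gene that this rule also names is not reported here. Members and lists were chosen with earlier results of these data known. The credibility intervals of the libraries did not overlap for 23 of the 30 members, beside 75.9% of the expressed protein-coding genes. For the other members, Insig1 among them, the intervals overlapped. Fasn and Srebf1 are among the 23, and their gene TPM depended on which transcripts the reads were assigned to. Intervals that lie apart therefore do not show a gap beyond assignment error. Floors cover counting error only.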

Additional observations from a re-analysis of the deposited data

How the results depend on the processing

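The number of members at 1 TPM or more was 29 with either replicate left out and 26 at 5 TPM. The median member level of 5.13 in log2(TPM + 1) was 5.45 with TPM rescaled over protein-coding genes, and it ranged from 4.94 to 5.37 with 1 replicate left out. The summed level of 2675 TPM was 3355 TPM with that rescaling and 2200 TPM over coding transcripts only, an alternative added after the data were seen, and it ranged from 2545 to 2804 TPM with 1 replicate left out. Over coding transcripts only, the mean level moved by more than the spread between libraries for 6 members, among them Fasn, to 143 TPM, and Srebf1, to 71.5 TPM. Msmo1, whose libraries differ widely, had 20.96 TPM over coding transcripts against 52.9 TPM for the gene, with 14.4 TPM in replicate 1 and 27.6 in replicate 2. The 8 members at least 2-fold apart were 17 at 1.5-fold, 16 of them higher in replicate 2, and 5 by TPM + 1. They were 8 under DESeq2 size factors, with no filter on low counts, with a minimum of 10 counts and with TMM over protein-coding genes, and 6 with the GC trend subtracted. For these alternatives no share over all genes was computed. The pairs at least 2-fold apart numbered 5 of 8, and 6 to 7 with 1 replicate left out. Srebf2 over Srebf1 changed sign, to 0.44, by reads per kilobase of the longest coding transcript, without passing the bound under either measure; the cause was not tested. No paired analysis was possible because both libraries belong to 1 group. For Insig1, with 10 and 23 counts in replicates 1 and 2, depth limits the level to its interval.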
